A study of Arabidopsis thaliana with 9 samples.

Results

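Line 22 of Arabidopsis thaliana, which carries the rice gene OsSAP11, was set against untransformed wild type over all genes measured on the Affymetrix ATH1 array. The 3 arrays titled for this line and the 3 wild type arrays were used, 6 of the 9 arrays in the series. Both groups were seedlings of the ecotype labelled col 1, aged 21 days, untreated and grown on diluted Murashige and Skoog (MS) medium with no antibiotic for selection. The other 3 arrays hold line 25, which carries the rice gene OsRLCK253 and was grown in the same way. It shares the estimate of the spread and is set beside the OsSAP11 line near the end. The labels call the 3 replicates of each group biological. A single line stands for OsSAP11, which means that effects of the transgene cannot be told apart from those of the line, and the rice transcript itself is not measured by this array. RNA came from whole seedlings, in which fewer cells of a type and less RNA per cell cannot be told apart.

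OsSAP11 belongs to the stress-associated proteins (SAPs), small plant proteins that carry A20 and AN1 zinc fingers. Members of the family in rice and Arabidopsis are induced by salt, cold, drought and wounding, and some of them bind ubiquitin or act as ubiquitin ligases. In Arabidopsis, stress and touch induce a first wave of transcription factors, calcium-binding proteins and signalling genes within minutes, and a later wave of protective proteins. Cold and dehydration genes belong to that later wave. Genes of light signalling and of anthocyanin synthesis answer to light and sugar.

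The deposited values are signals in linear units, 1 for each probe set, and were analysed as log2(signal + 16). The tests covered 22746 probe sets, of which 13513 name a single gene, 503 are shared by several genes and 8730 stay unnamed in the tables used here. A gene of a list or family counts as measured below only where a probe set names it alone. Shared and unnamed probe sets were tested but belong to no list. The median signal of an array ranged from 42.9 to 46.2 over the series. In 18 of 18 hybridisation spike-in probe sets, whose transcripts enter every sample at a known amount, the OsSAP11 line arrays had the lower mean, with a median log2 difference from wild type of -0.26. The poly-A spike-ins had a median difference of -0.013 over 27 probe sets. The log2 ratio of 3' to 5' signal, a measure of RNA integrity, differed by -0.14 to 0.31 over 6 control pairs. The part of these differences in the results was not tested. Leaf genes were bright in both groups: the means of 8 light-harvesting and photosystem genes lay between 571 and 24543 in the OsSAP11 line and between 480 and 22995 in wild type. Of the root markers fixed for this work, EXPA18 and EXPA7 were measured, at 35.9 and 10.8 in the OsSAP11 line and at 30.3 and 7.34 in wild type, and neither was called.

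Of all probe sets tested, 2869 (12.6%) differed from wild type, of which 1692 were higher in the OsSAP11 line (7.44%) and 1177 lower (5.17%), by limma with a Benjamini-Hochberg adjusted p under 0.05. Lower in the line were 6 of 9 measured rapid stress and touch regulators, 4 of 7 TIR-domain genes and 5 of 7 cold and dehydration genes, with none of these lists holding a higher gene. Higher were 3 of 4 light-signalling genes, 4 of 7 anthocyanin and flavonoid genes and 4 of 16 sugar transporter genes matched by name, with none lower. The lower probe sets had a median log2 change of -0.73, against 0.52 among the higher ones, and a size of 2 or more on the log2 scale was reached by 20 higher and 119 lower probe sets. Small changes leaned the other way, with 764 higher and 366 lower probe sets under a size of 0.5. The median log2 change of all probe sets was -0.0021, on arrays whose scaling is not stated. Bright probe sets carried most calls: among the 5687 brightest probe sets 858 were higher and 657 lower, and among the 5687 dimmest 2 were called in each direction. The count was 1863 without OsSAP11 line replicate 1, 1887 without OsSAP11 line replicate 2 and 1827 without wild type replicate 1.

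**Figure D1:**
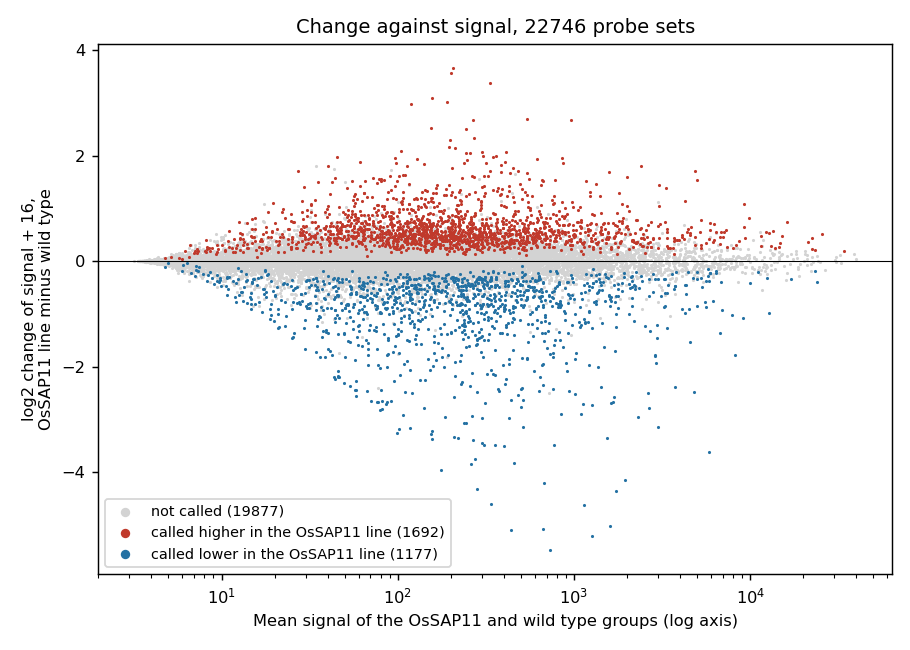
Each point is 1 of 22746 probe sets, with the mean signal of the OsSAP11 line and wild type on a log axis and the log2 change of signal + 16 (OsSAP11 line minus wild type) on the vertical axis. The 1692 called higher points form a dense band at small sizes, while the 1177 called lower points reach further from 0.

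Among the probe sets that name 1 gene, 810 were called higher and 623 lower. Genes named below are the 40 largest changes in each direction among those whose groups did not overlap and whose brighter group exceeded the median signal of 46.9. These spanned log2 changes of 1.28 to 3.66 for the higher genes and -5.09 to -2.42 for the lower ones, with standard errors of 0.0625 to 0.67 and 0.11 to 0.89. Adjusted p values (limma) ran from 7.25e-05 to 0.0468 for the higher genes and from 6.08e-05 to 0.0228 for the lower genes. As they were chosen on this contrast, their number, their direction and the separation of their groups, which the rule required, are a description. The lists of genes were chosen with earlier results of these data known, so their counts and medians are a description too. Groupings by function outside these lists were made after the values were seen and only order the account. The functions given for loci are general background on Arabidopsis and do not come from the tables.

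Transcription regulators were among the strongest losses. STZ, a zinc-finger repressor of stress responses, had signals of 14.4, 12.8 and 50.8 in the OsSAP11 line, against 1374, 1460 and 1100 in wild type. AT3G46600, a transcription factor of the GRAS family, gave 73.9, 61.6 and 126.5 in the line, against 826.6, 722.8 and 767.7 in wild type, a log2 change of -2.98 (SE 0.40, adjusted p = 0.00507). In STZ the third array of the line stood above the other two, and in AT3G46600 likewise. The signals of ORA47, an AP2/ERF factor that switches on jasmonate synthesis, were 10.2, 17.8 and 13.9 in the OsSAP11 line and 181, 126 and 136 in wild type. AT5G46710, of the plant-specific PLATZ zinc-finger family, changed by -3.48 on the log2 scale. AT3G56880, which encodes a protein with a VQ motif of the kind that binds WRKY factors, had signals of 477, 434.6 and 510.7 in the line, against 3203, 2956 and 2590 in wild type. Its arrays within a group were close together, and the fitted change was -2.58 (SE 0.21, adjusted p = 0.000977). Of 7 WRKY genes matched by name, WRKY53, a regulator of leaf senescence and defence, fell by 2.67 on the log2 scale and WRKY22, a factor of pathogen signalling, fell by 1.67. ZAP1, the founding Arabidopsis member, rose by 0.22 and the other 4 were not called. Of 22 genes matched by a bZIP name, 2 fell: BZIP60, a factor of the unfolded protein response, with -0.69, and BZIP53, a factor of low-energy responses, with -0.65. The other 20 were not called, 10 of the 22 had means under 16 in both groups, and with 12.6% called over all probe sets this count is no result about the family. HYH, a bZIP factor under another name, is not in it.

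The list of rapid stress and touch regulators held 9 measured genes, of which 6 fell and none rose, with a median log2 change of -2.67 beside -0.0021 over all probe sets. The 3 genes without a call, AT3G01830, CML37 and AT1G76640, had means of 4.77 to 6.01 in the OsSAP11 line and of 5.00 to 7.33 in wild type. Taking the brighter group of each probe set, the lowest mean was 3.19, so a fall from these levels can hardly be measured. The genes that fell include calcium-binding proteins. AT4G27280, an EF-hand protein, had signals of 136, 88.7 and 247 in the line, against 3682, 3532 and 2749 in wild type. It fell by 4.36 (SE 0.89, adjusted p = 0.0228 by limma) and lost its call in 5 of the 6 fits that left out 1 array. CML38, a calmodulin-like protein, fell by 3.85. CML42, a calmodulin-like protein of leaf hairs, fell by 1.07 and CML23 by 0.51. In all, 3 of 9 genes named as calmodulin or calmodulin-like fell and none rose, and 4 of the 9 had means under 16 in both groups. The median log2 change of the 9 was -0.033. Over all probe sets 5.17% were lower and 12.6% were called in either direction, and the count is only a description. A further EF-hand gene, AT2G41090, which encodes a calmodulin-like protein but carries only a locus code in the tables, was on the other side, with signals of 7249, 5866 and 8889 in the OsSAP11 line and 1483, 2091 and 3467 in wild type. It rose by 1.70 (SE 0.31, adjusted p = 0.0147), and the call was lost in 2 of the 6 fits that left out 1 array.

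Genes for proteins with a TIR domain, the signalling module of many plant immune receptors, formed a second group of falls. Of 7 measured, 4 fell and none rose, with a median log2 change of -2.57. AT1G72940 had signals of 38.4, 29.3 and 52.2 in the OsSAP11 line, against 449.5, 462.1 and 433.9 in wild type. Its wild type arrays differed little, and their separation from those of the line was required by the rule for ranked genes. AT1G66090, which also carries a nucleotide-binding domain, gave 4.88, 6.25 and 4.27 in the line and 145, 93.5 and 94.6 in wild type, a log2 change of -2.57 (SE 0.15, adjusted p = 0.000467). The line was thus at the floor of the array for this gene. The loci AT1G72900 and AT1G72920 had changes of -3.52 and -3.39, the second losing its call in 4 of the 6 fits without 1 array. The remaining AT1G72950, AT2G32140 and AT1G57630 had means under 16 in both groups. PUB23, a ubiquitin ligase that dampens immune signalling, fell by 0.86, and ATL8, a RING-type ubiquitin ligase, fell by 0.81. They were the only 2 called among 12 ligases of these families, with 4 of the 12 under 16 in both groups. Beside the 12.6% called over all probe sets this is no result about these families.

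The lower genes included several for secreted and membrane proteins. TET8, a tetraspanin found on extracellular vesicles, had signals of 378, 462 and 483 in the OsSAP11 line, against 3114, 2972 and 2576 in wild type. The fitted change was -2.67 (SE 0.19, adjusted p = 0.000737), while TET10, of the same family, rose by 0.52 and 13 other tetraspanins were not called. AT3G10930, the precursor of a peptide of the IDA-like family, was at 7.002, 5.23 and 6.56 in the line and at 151, 90.0 and 83.5 in wild type. The line was at the floor for this gene in each of its 3 arrays. AT5G62360, an inhibitor of invertase or pectin methylesterase, gave 97.0, 96.6 and 137 in the line against 835.3, 752.1 and 706.8 in wild type. EXO, an extracellular protein of brassinosteroid-promoted growth, gave 198.5, 193.9 and 139.7 in the line and 1342, 1252 and 676.2 in wild type. AT5G19120, of the aspartyl protease family, gave 411, 490.5 and 656.8 in the line and 4312, 3931 and 3964 in wild type. The log2 changes of these 3 genes were -2.64, -2.47 and -2.96. Wall genes went both ways. EXLA1, an expansin-like gene, fell by 1.85, while EXLB1, a relative of it, rose by 1.27, EXPA8, an expansin, by 0.55 and XTH32, a xyloglucan hydrolase, by 1.21. The other 16 of 19 expansin genes and 9 of 10 XTH genes were not called, shares near the 12.6% called over all probe sets.

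Enzymes among the losses included a plastid lipase gene, AT1G02660, with signals of 9.87, 10.1 and 19.3 in the OsSAP11 line, against 213, 207 and 187 in wild type. Its change of -2.92 had a small error (SE 0.12, adjusted p = 0.000165). AT3G62950, a glutaredoxin of the plant-specific CC type, was at 6.09, 6.26 and 10.9 in the line and at 211, 115 and 138.5 in wild type. OPCL1, a ligase that activates jasmonate precursors in peroxisomes, was the only measured gene of the jasmonate list and fell by 1.16 (SE 0.18, adjusted p = 0.00781). UGT73B1, a UDP-glucosyltransferase, fell by 1.26, and UGT73B5, a relative of it, by 0.55. GSTU22, a glutathione transferase, fell by 0.83, whereas GSTU20 and GSTL3 of the same family rose by 0.43 and 0.39. AT3G15450, of a family called aluminium-induced and known to respond to sugar starvation, had signals of 601, 763 and 1391 in the line, against 11303, 10642 and 10224 in wild type. AKINBETA1, a subunit of the energy-sensing kinase SnRK1, fell by 0.86, and PPDK, a kinase that makes phosphoenolpyruvate, rose by 0.66. These 3 were the measured members of the sugar starvation list. MCCA, of leucine breakdown, fell by 0.44, and the other 5 of the 6 measured genes of amino acid breakdown were not called.

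Many of the largest losses concerned loci with little known function. AT2G25735 had signals of 5.18, 5.29 and 5.26 in the OsSAP11 line, against 255, 155 and 169 in wild type. AT1G05575 gave 7.30, 7.38 and 6.99 in the line and 229, 161 and 201 in wild type, a log2 change of -3.18 (SE 0.11, adjusted p = 6.08e-05), the smallest adjusted p among the 40 lower genes. In both cases the line was at the floor while wild type was clearly measured. AT2G20670 and AT2G39650, of the DUF506 family, changed by -2.91 and -2.66. AT1G23710, of the DUF1645 family, changed by -2.66 and AT1G69890, of the DUF569 family, by -2.47. AT1G76600, AT5G10695, AT1G19020, AT4G36500, AT3G15630, AT1G25400, AT4G24380 and AT2G27830 had log2 changes between -3.14 and -2.42. AT2G27830 gave 199, 221 and 269 in the line, against 1324, 1276 and 1274 in wild type, where its arrays differed little. Of the 40 lower genes, 10 were under a signal of 16 on all 3 arrays of the line and 15 on at least 1 of them, and 4 of the 40 higher genes, SAG29, AT1G13650, AGO7 and AT2G44940, were under it on at least 1 wild type array. The fold sizes of these genes are set in part by the added 16. The tables used here give no detection calls.

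**Figure D2:**
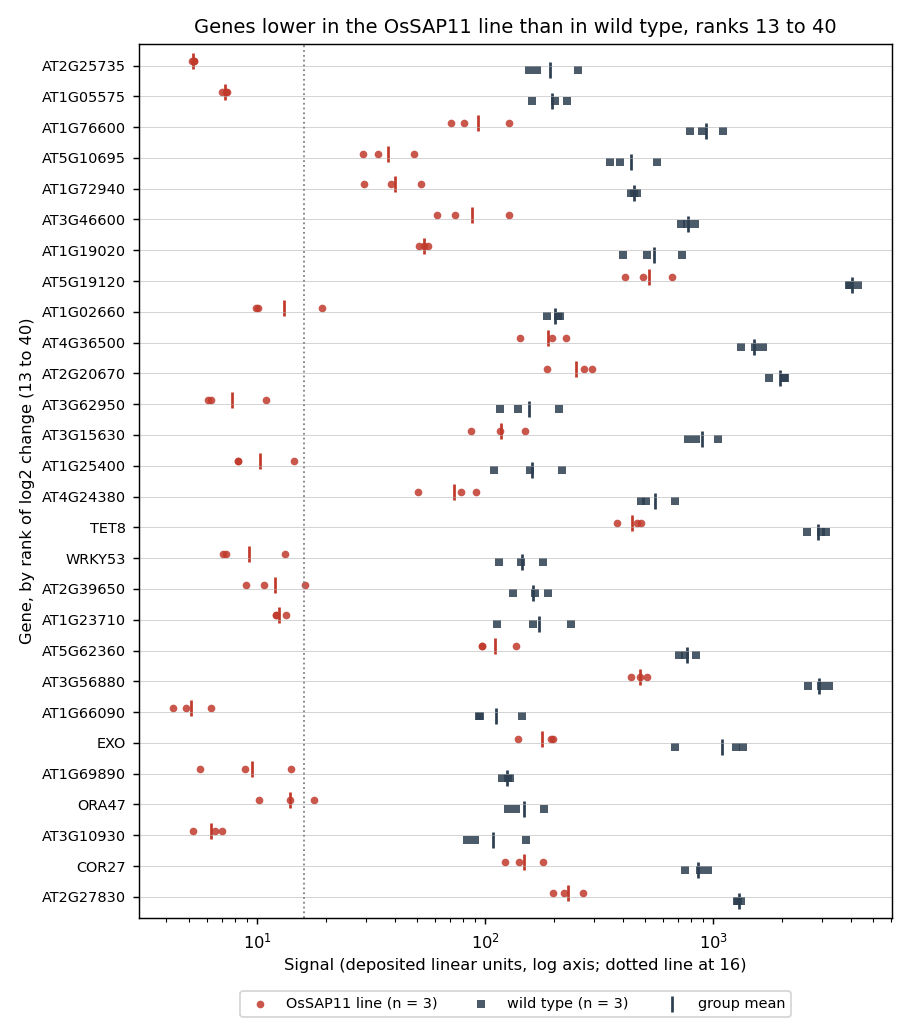
Signals on a log axis for the 28 lower genes at ranks 13 to 40, with the 3 OsSAP11 line arrays (red circles) above the 3 wild type arrays (dark squares) for each gene, vertical ticks for group means and a dotted line at a signal of 16. Of the 28 genes, 9 have all 3 OsSAP11 line arrays left of the dotted line.

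Of 7 measured genes of cold and dehydration, 5 fell and none rose, with a median log2 change of -1.81. Over all probe sets 5.17% were lower and 12.6% were called in either direction. These shares stand beside each count in this paragraph, and the lists are small. COR27, which links cold to the circadian clock, had signals of 123, 140 and 179 in the OsSAP11 line, against 951, 750 and 872 in wild type. Its relative AT4G33980 gave 78.7, 111 and 139 in the line, against 505.7, 552.3 and 530.5 in wild type, a change of -2.15 (SE 0.19, adjusted p = 0.00137). COR15A had a log2 change of -1.04 and LEA4-5, a protective protein of dry tissue, one of 0.11, and neither was called (adjusted p = 0.113 and 0.551). LEA4-5 had means of 14.3 in the OsSAP11 line and 11.9 in wild type, both under 16, where a fall can hardly be measured. Of the 29 loci on the circadian clock list 2 were measured, and both fell. AT1G07050, which encodes a protein with the CCT motif of clock and flowering regulators, gave 84.7, 120 and 114 in the line and 656, 564 and 681 in wild type. It fell by 2.42 and GI, of the clock, fell by 0.67. Of 10 measured heat shock and chaperone genes, 3 fell, Hsp70-2, a cytosolic HSP70, rose by 0.43 and 6 were not called. In 4 of the 10, the means were under 16 in both groups. Of 6 measured Arabidopsis SAP genes, 3 fell and none rose. AT3G52800 had signals of 297.5, 285.2 and 337.9 in the line, against 919.4, 1004 and 656.9 in wild type.

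**Figure D3:**
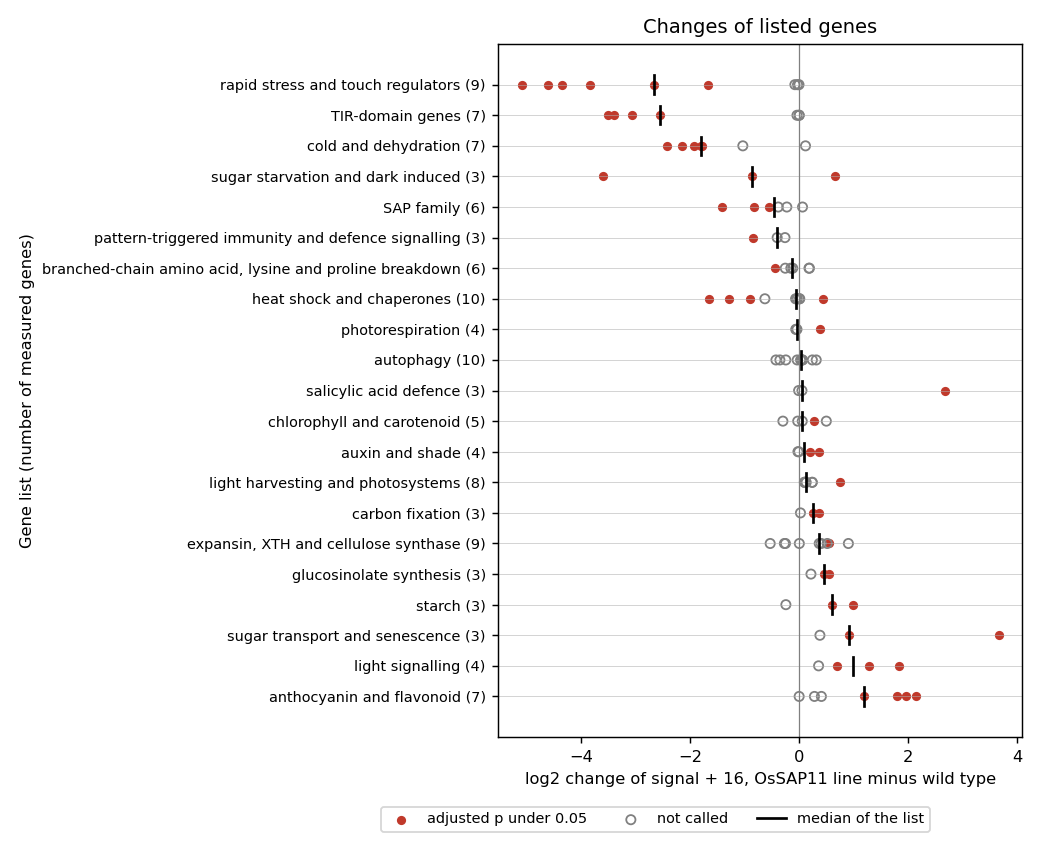
Each point is 1 measured gene of a list with at least 3 measured genes, filled where the adjusted p was under 0.05, on an axis of log2 change of signal + 16 (OsSAP11 line minus wild type), and the black bar is the median of the list. The medians run from -2.67 for rapid stress and touch regulators to 1.18 for anthocyanin and flavonoid genes.

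The largest rise was that of a sugar transporter. SAG29, a SWEET sugar transporter of senescing leaves, had signals of 427.8, 413.8 and 330.1 in the OsSAP11 line, against 7.65, 38.4 and 9.40 in wild type. SWEET1, a glucose transporter of the same family, gave 229, 197 and 182 in the line and 60.2, 66.3 and 90.2 in wild type. SWEET4, another member, gave 241, 223 and 254 in the line and 130, 116 and 113 in wild type. The log2 changes of these 3 genes were 3.66, 1.32 and 0.91. SWEET17, a fructose transporter of the vacuole, rose by 0.23. With these, 4 of 16 sugar transporter genes matched by name rose, none fell and 12 were not called, and 8 of the 16 were under 16 in both groups. Of those without a call, SWEET2 had a log2 change of 0.89 (adjusted p = 0.0511) and SWEET11, which exports sucrose from leaf phloem cells, one of 0.38 (adjusted p = 0.0733). Of 12 transporters of nitrate, peptides and glucosinolates, 4 rose and none fell: AT1G68570 by 0.88, AT3G21670 by 0.86, AT2G26690 by 0.52 and GTR2, a glucosinolate importer, by 0.35. Of these 12, 6 were under 16 in both groups. Over all probe sets 7.44% were higher, and the counts of both transporter families are only a description. AT5G02180, of the amino acid transporter family, had signals of 75.9, 95.6 and 97.7 in the line, against 20.3, 17.3 and 25.1 in wild type.

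Of the 22 loci on the light-signalling list 4 were measured, and 3 of these rose, beside 7.44% higher over all probe sets. AFR, an F-box protein of phytochrome A signalling, had signals of 255, 240 and 218 in the OsSAP11 line, against 78.8, 119 and 71.4 in wild type. HYH, a bZIP factor of seedling development in light, gave 75.1, 53.0 and 61.3 in the line and 31.3, 33.5 and 33.6 in wild type, and it rose by 0.69 (SE 0.11, adjusted p = 0.011). AT3G44450, an inhibitor of cryptochrome photoreceptors, gave 235, 208 and 247 in the line and 49.3, 46.3 and 64.4 in wild type. AT3G52740, a second inhibitor of the same kind, had a change of 0.35 and was not called (adjusted p = 0.0758). AT1G18810, of the phytochrome kinase substrate family, rose by 1.47, with the call lost in 3 of the 6 fits without 1 array, while the call of AFR was lost in 2.

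Of 7 measured anthocyanin and flavonoid genes, 4 rose and none fell, with a median of 1.18. The list holds 24 loci, and 2 of the 7 measured were under 16 in both groups. UGT78D1, which adds rhamnose to flavonols, had signals of 845.9, 699.8 and 582 in the OsSAP11 line, against 302.9, 283.8 and 313.8 in wild type. DFR, the reductase at the entry to anthocyanins, gave 489.5, 331.6 and 245.4 in the line, against 50.6, 109.5 and 47.4 in wild type. In both genes the first array of the line was the highest and the third the lowest. The other called genes, UF3GT and AT4G14090, which add sugars to anthocyanins, showed the same order of arrays in the line, and they lost their calls in 3 and 4 of the 6 fits without 1 array. UGT78D2, which adds glucose to flavonoids, had a change of 0.28 and was not called (adjusted p = 0.0879). In the wider family of UDP-glycosyltransferases, 7 of 51 rose and 2 fell, with 24 of the 51 under 16 in both groups. Over all probe sets 7.44% were higher and 5.17% lower, and the count is read as no result about the family. Besides those above, the rises were GT72B1, which acts on lignin precursors and foreign compounds, by 0.90, UGT88A1 by 0.77, UGT74D1, which acts on auxin, by 0.67, UGT74B1, of glucosinolate synthesis, by 0.55 and UGT72B3 by 0.28.

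**Figure D4:**
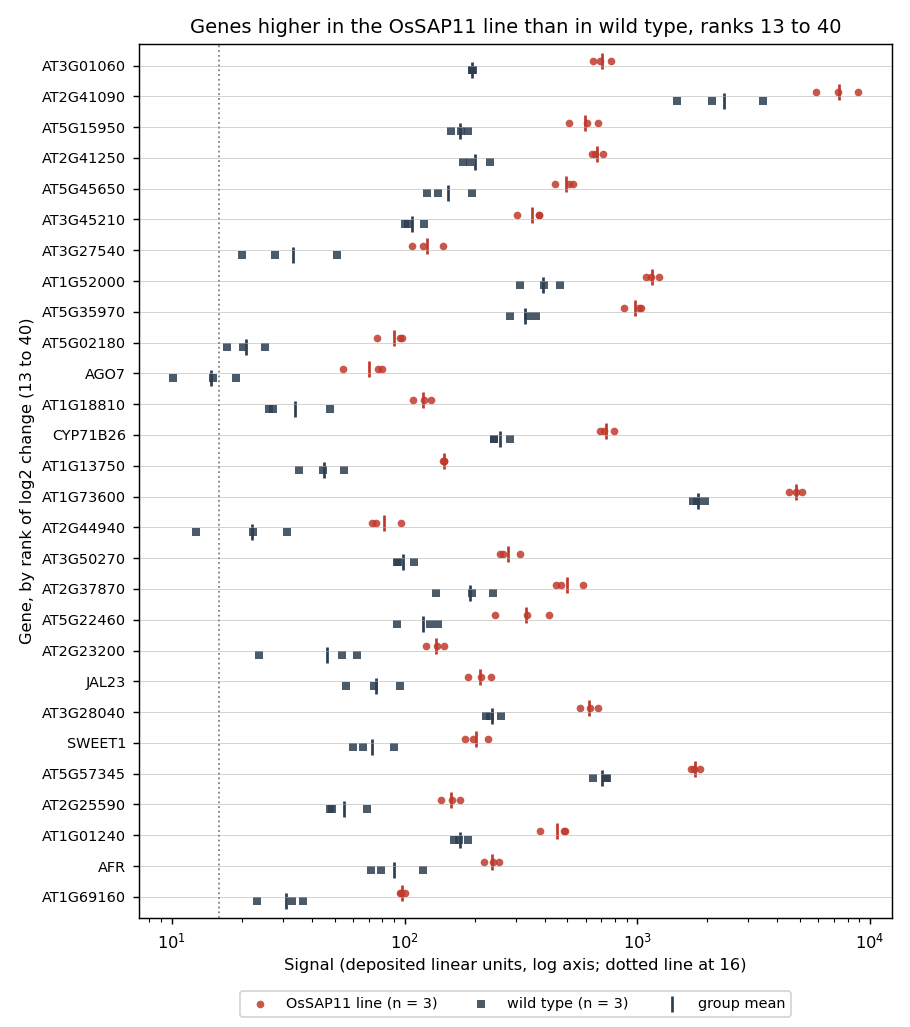
Signals on a log axis for the 28 higher genes at ranks 13 to 40, with the 3 OsSAP11 line arrays (red circles) above the 3 wild type arrays (dark squares) for each gene, vertical ticks for group means and a dotted line at a signal of 16. The changes shown run from 1.28 to 1.76 on the log2 scale, and every OsSAP11 line array lies right of the dotted line.

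The higher genes included lectins and receptor kinases of the cell surface. AT1G52000, a lectin of the jacalin type, had signals of 1244, 1085 and 1150 in the OsSAP11 line, against 398, 314 and 463 in wild type. JAL23, of the same type, gave 235, 188 and 213 in the line and 95.7, 73.5 and 56.0 in wild type, a change of 1.34 (SE 0.17, adjusted p = 0.00417). AT5G03350, of the legume lectin type, gave 1637, 1532 and 1649 in the line, against 149, 124 and 686 in wild type. The third wild type array of this gene stood far above the other two, and the call was lost in 5 of the 6 fits without 1 array, as was that of AT1G52000. AT3G28040, a leucine-rich repeat receptor kinase, had signals of 623, 674 and 568 in the line, against 232, 259 and 224 in wild type. The fitted change was 1.33 (SE 0.092, adjusted p = 0.000688). AT1G69730, of the wall-associated kinase type, rose by 1.86 and AT2G23200, a kinase with a malectin-type domain, by 1.34, and the call of AT2G23200 was lost in 5 of the 6 fits.

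Rises in metabolism covered several routes. AT5G15950, S-adenosylmethionine decarboxylase of polyamine synthesis, had signals of 678, 607 and 507 in the OsSAP11 line, against 175, 158 and 187 in wild type. AT1G73600, a methyltransferase on the route to phosphatidylcholine, gave 5124, 4474 and 4794 in the line and 1738, 1945 and 1807 in wild type. Their log2 changes were 1.69 and 1.38. CYP71B26, a cytochrome P450, gave 716, 694 and 793 in the line and 243, 285 and 241 in wild type. CYP71B34 and CYP71B35, which follow it by locus code, rose by 0.41 and 0.77. Of 24 P450 genes matched by name these 3 rose, CYP71B22 fell by 0.44 and 20 were not called, with 16 of the 24 under 16 in both groups. Beside the 12.6% called over all probe sets this is no result about the family. AT2G32160, a methyltransferase of the S-adenosylmethionine-dependent kind, rose by 2.53, AT1G13750, a purple acid phosphatase, by 1.43, AT2G41250, a hydrolase of the HAD type, by 1.67 and AT5G22460, an alpha/beta hydrolase, by 1.34. AT3G50270, an acyltransferase of the HXXXD type, rose by 1.36 and AT3G27540, of a family of N-acetylglucosamine transferases, by 1.56. Among proteases, AT5G45650, a subtilase, had signals of 529.2, 510.8 and 443.6 in the line, against 139, 125 and 195 in wild type, and AT1G62290, a vacuolar-type aspartyl protease, rose by 1.97. AT2G37870, a lipid-transfer protein, rose by 1.34 and lost its call in 5 of the 6 fits without 1 array and with a replicate block (adjusted p = 0.0533). AT5G03350 also lost its call with the replicate block (adjusted p = 0.0657).

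Starch genes rose in 2 of 3 cases. APL3, a subunit of the enzyme that makes ADP-glucose, had signals of 178, 134 and 111 in the OsSAP11 line, against 50.8, 65.9 and 71.5 in wild type, and SBE2.2, a branching enzyme, rose by 0.60. DPE1, which acts in starch breakdown, had a change of -0.25 and was not called (adjusted p = 0.26). LHCB4.2, a minor antenna protein of photosystem II, rose by 0.74 and was the only call among 8 light-harvesting and photosystem genes, whose median was 0.12. Over all probe sets 7.44% were higher and 12.6% were called in either direction. The 1 call among these 8 is no result about the group, and the starch list is small. RCA and PRK, of carbon fixation, rose by 0.36 and 0.24, and LrgB, the plastid transporter of glycolate and glycerate, rose by 0.39. GSA1, of chlorophyll synthesis, had signals of 1243, 1274 and 1225 in the line, against 1021, 1049 and 1043 in wild type, a rise of 0.26.

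Genes of RNA silencing and chromatin appeared among the rises as well. AGO7, an argonaute protein of the trans-acting small RNA pathway and of leaf phase timing, had signals of 54.2, 80.1 and 77.2 in the OsSAP11 line, against 15.1, 10.1 and 18.9 in wild type. HIS1-3, a linker histone induced by drought, gave 993, 1062 and 1079 in the line and 514, 576 and 372 in wild type. The log2 changes were 1.49 (SE 0.15, adjusted p = 0.00181) and 1.10 (SE 0.28, adjusted p = 0.0465). In total 3 of 7 histone genes rose and none fell, the others being HTB4, with 0.39, and HON4, a linker-type protein, with 0.28. Over all probe sets 7.44% were higher, and with 7 genes the count is only a description. AT2G25590, of the plant Tudor-like family, rose by 1.31, AT2G44940, an AP2/ERF factor, by 1.38, AT5G35970, a helicase-like protein, by 1.53 and bHLH34, a transcription factor, by 0.88. AT1G80130, with tetratricopeptide repeats, rose by 2.04 and AT3G45210, of the DUF584 family, by 1.57. AT3G01060, whose function is not given here, had signals of 767, 647 and 692 in the line, against 194, 197 and 195.5 in wild type, with the smallest adjusted p of the 40 higher genes (7.25e-05). The further loci without a stated function, AT1G13650, AT5G12050, AT5G57345, AT1G01240 and AT1G69160, rose by 1.28 to 2.97.

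Some groups held no call. None of 10 autophagy genes was called, with a median of 0.035 and a range of -0.43 to 0.31, and none of 6 peroxidase genes, whose changes ran from -1.01 to -0.0022. Of 8 genes of the expansin, XTH and cellulose synthase list besides EXPA8, and of 2 genes each for gibberellin receptors, cytokinin response and iron deficiency, none passed the test. A value that misses the threshold does not show that the groups are alike. The lists covered 130 of 661 loci, and 7 lists, among them abscisic acid and oxidative stress, had no measured gene. Loci that are not counted as measured may still be on the array, under probe sets that are unnamed here or shared by several genes. Of 9 genes matched by tubulin names, TUB9, TUB5 and TUB7, which encode the building block of microtubules, fell by 0.43, 0.39 and 0.38. The other 6 were not called, and of these PFI and POR encode folding cofactors. Over all probe sets 5.17% were lower and 12.6% were called in either direction, and with 9 genes the count is only a description.

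The OsRLCK253 line was used to ask where the 80 named genes differ between the lines. Over all probe sets, 1185 (5.21%) differed between these lines. Of the 80, 11 differed, but the named genes were chosen on OsSAP11 line arrays that also enter this contrast, so the share is a description. The OsRLCK253 line's own comparison uses the same wild type arrays, so the changes of the 2 lines are not independent and are only given side by side. Most of the 80 were also called against wild type with OsRLCK253, in the same direction. The share of all probe sets called in that comparison is not given here, so this is only a description. Those that were not called include the lower genes AT4G27280 and AT1G72920 (adjusted p = 0.158 and 0.0853 by limma). They also include the higher genes AT1G62290, AT1G52000, AT5G22460, AT1G01240, AT2G25590, AT5G12050 and AT2G23200 (adjusted p = 0.066 to 0.521 by limma). The changes of most named genes are thus not shown to be particular to the OsSAP11 line. The log2 change of STZ from wild type was -5.09 with OsSAP11 and -3.59 with OsRLCK253. That of AT4G29780 was -4.61 with OsSAP11 and -4.14 with OsRLCK253, and that of AT3G15450 was -3.61 with OsSAP11 and -4.60 with OsRLCK253. DFR had a log2 change of 2.15 with OsSAP11 and 3.18 with OsRLCK253. None of these 4 genes was called between the lines (adjusted p = 0.105 to 0.40 by limma). The 2 differences among the lower genes were COR27, with a mean of 147 on the OsSAP11 line arrays, 15.1 on those of the OsRLCK253 line and 858 in wild type, and AT5G62360, with a mean of 110 with OsSAP11, 27.7 with OsRLCK253 and 765 in wild type. Both were higher in the OsSAP11 line than in the other line, by 2.39 (adjusted p = 0.00321) and 1.51 (adjusted p = 0.00406). AT1G62290 gave 594, 563 and 526 on the OsSAP11 line arrays, 116, 170 and 153 on those of the OsRLCK253 line and 130, 119 and 145 in wild type. AT1G52000 averaged 1160 in OsSAP11 line seedlings, 326 with OsRLCK253 and 391.8 in wild type. Both were higher in the OsSAP11 line than in the OsRLCK253 line, by 1.85 (adjusted p = 0.00321) and 1.86 (adjusted p = 0.0216), and in the OsRLCK253 line neither was called against wild type (adjusted p = 0.521 and 0.487). AT5G12050, AT5G22460, AT2G25590, AT5G02180 and CYP71B26 were also higher in the OsSAP11 line, by 0.46 to 1.22. AT1G69730 and AT5G57345 were lower in it than in the OsRLCK253 line, with log2 differences of -0.89 and -0.40. The number that differed was 7 without OsSAP11 line replicate 1, 4 without replicate 2 or replicate 3 of that line and 7 without wild type replicate 1. Beyond the 80, SWEET4 and HIS1-3 were higher in the OsSAP11 line than in the OsRLCK253 line by 1.06 (adjusted p = 0.0133) and 1.74 (adjusted p = 0.0206).

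**Figure D5:**
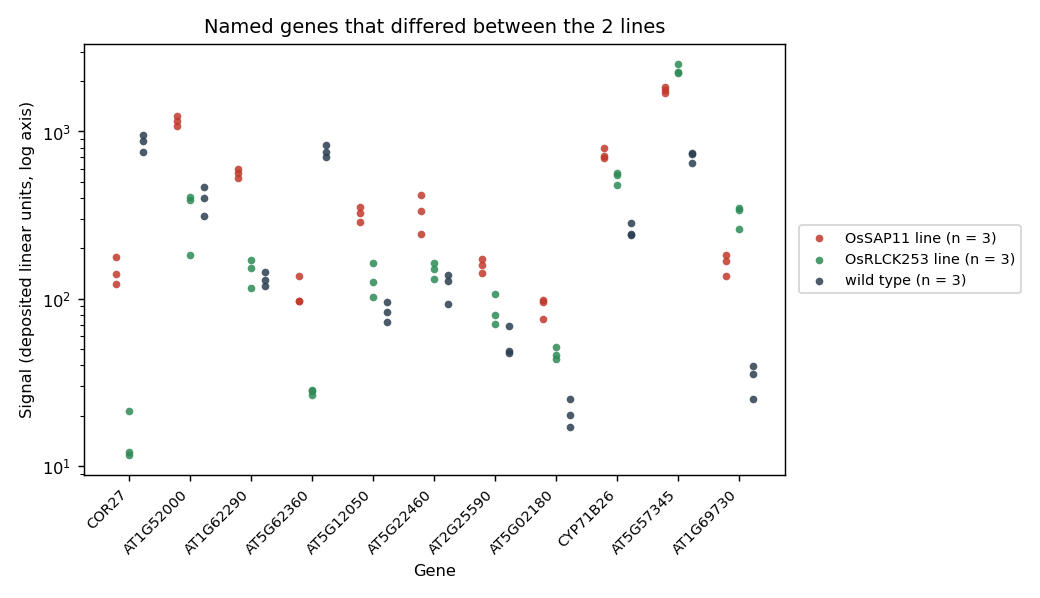
Signals on a log axis of the 11 named genes that differed between the lines, with 3 arrays each for the OsSAP11 line (red, left), the OsRLCK253 line (green, middle) and wild type (dark, right), ordered from the most positive to the most negative difference between the lines. For COR27 and AT5G62360 the OsSAP11 line arrays lie between those of the OsRLCK253 line and of wild type.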

How the data were processed

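RNA of whole seedlings was measured on 9 ATH1 arrays, 3 per group. The deposited values are intensities, 1 linear signal per probe set and array. GCOS is named in the submitters' processing notes, while no source used here states the summarisation, background correction or scaling. Array medians differed by 0.0777 on the log2 scale, so the deposited intensities were not rescaled.

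Of 22810 probe sets, 64 controls were set aside and 22746 tested with no filter. Signals were transformed as log2(signal + 16), which makes fold sizes smaller for dim genes. The 3 group means were estimated together from the 9 arrays in limma 3.58.1 (R 4.3.3), with 6 residual and 0.773 prior degrees of freedom. Tests were two-sided with Benjamini-Hochberg adjustment over all probe sets, and calls were made at an adjusted p under 0.05. Precision is limited by the number of arrays. Tested on simulated data, changes of 0.5, 1 and 2 were called in 62.7%, 83.6% and 98.5% of changed probe sets for the OsSAP11 line against wild type, and 0.0532% of unchanged ones were called. Each size was given to 66 or 67 probe sets, far fewer than were called in the data. They were drawn from all 22746, including dim ones, whose spread on this scale can be very small. The rates are therefore not those of the genes described here.

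Named genes are ranks 1 to 40 in each direction among called probe sets that name 1 gene, do not overlap between groups and have a brighter group mean over the overall median of 46.9, plus up to 8 called and 3 uncalled members of each list. The 36 lists by locus and 36 families by symbol, like the comparison itself, were chosen with earlier results of these data known. Of the 13513 probe sets naming 1 gene, 13436 matched the RefSeq table of TAIR10.1, used for names only. Family matching by symbol misses genes that carry only a locus code or a symbol that does not name the family. Same-numbered replicates did not deviate together (correlations of 0.00948, 0.195 and -0.0628 over 11373 probe sets), so replicate numbers were not used to pair arrays. A planned description of promoter motifs was not run, as no promoter sequences were used here. The alternatives comprised pseudocounts of 1 and 32, median centring, quantile normalization, a dim-probe filter, the 2 groups alone, a trend with robust prior, no shared spread, a replicate block and each of the 6 arrays left out in turn.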

Additional observations from a re-analysis of the deposited data

How the results depend on the processing

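The count of 2869 probe sets (1692 higher, 1177 lower) was between 2168 and 3297 under the alternatives that left out no array of the 2 groups: 2700 with quantile normalization, 3215 with median centring, 3055 and 2806 with pseudocounts of 1 and 32, 3297 with the filter on dim probe sets, 2617 with the 2 groups alone, 2868 with a trend and robust prior, 2168 with no shared spread and 2285 with the replicate block (1351 higher, 934 lower). Leaving out 1 array gave 1827 to 2438 calls, with 1052 to 1424 higher and 775 to 1014 lower, from fewer samples. Of the 80 named genes, 11 differed between the lines, against 29 with the filter, 19 with the trend and robust prior and 4 to 10 without 1 of the 6 arrays. The cause of the larger counts was not tested. Of the 80, 68 kept their call against wild type in each of the 6 fits without 1 array, and none changed direction. The block lost 2 of their calls, AT5G03350 and AT2G37870, the 2 groups alone lost 4 (AT5G03350, AT4G14090, AT2G41090 and AT2G23200), no shared spread lost 3 (AT5G03350, AT4G14090 and AT2G23200) and quantile normalization lost 1 (AT5G03350). The pseudocounts, median centring and the trend and robust prior lost none, nor did the filter among the named genes it kept (39 higher, 38 lower). The median of the salicylic acid list was 0.0488 and ranged from -0.00841 (without OsSAP11 line replicate 1) to 0.0869 without 1 array, and that of the chlorophyll and carotenoid list was 0.0541 and ranged from -0.00369 (without OsSAP11 line replicate 2) to 0.0844; neither list is described by its direction. Medians of lists with dim genes followed the pseudocount: that of rapid stress and touch regulators was -3.87 with 1 and -2.09 with 32. Signals under 16 limit the sizes given for 15 of the 40 lower genes (at least 1 array of the line) and 4 of the 40 higher genes (at least 1 wild type array): with a pseudocount of 1 in place of 16, the largest move of a log2 change among the lower genes was 1.65.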

Other observations

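The named lower genes did not spread evenly over the arrays of a group. Wild type replicate 1 held the highest wild type signal for 33 of the 40 lower genes, and OsSAP11 line replicate 3 held the highest signal of the line for 28 of them. Among the 40 higher genes OsSAP11 line replicate 1 was highest for 19. The genes share their arrays, so these counts are not independent observations.

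Genes encoded in the plastid genome were looked at after their values were seen. Of 69 probe sets for them, 4 were called higher and 1 lower, beside 12.6% called in either direction over all probe sets. The higher ones were rpl22, rps3 and rps19, which encode proteins of the plastid ribosome and lie next to each other by locus number, with log2 changes of 0.79, 0.55 and 0.42, and psbH, of photosystem II, with 0.39. The lower one was ndhK, a subunit of the plastid NDH complex, with -0.67. The median of the 69 was 0.042.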
